A study of Mus musculus with 28 samples.

Results

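Slc39a8 and 7 related genes were followed across the tail tendons of Fosl-2(Tg) and wild-type (WT) mice: the zinc and manganese importers Slc39a8, Slc39a14, Slc39a1 and Slc39a13, the exporters Slc30a1 and Slc30a10, and the metallothioneins Mt1 and Mt2. These 8 genes, of 25719 counted, were chosen by name, as zinc and manganese transporters or metal-binding proteins. The list was built around Slc39a8 because of its high level in established Fosl-2(Tg) tendons, so that difference between the groups, and every value that contains it, is given as a description without a test. In 28 C57BL/6 mice, RNA from homogenised tail tendon fascicles was depleted of ribosomal RNA and sequenced. Early mice, aged 6 to 8 weeks, comprised 7 WT and 8 Fosl-2(Tg) animals, all male. Established mice, older than 14 weeks, comprised 6 WT and 7 Fosl-2(Tg) animals, female except for 1 male in each genotype (replicate 5 of each). The transgenic mice carried murine Fosl2, a subunit of the AP-1 transcription factor, inserted at random under the H2Kb promoter of the MHC class I locus and joined to eGFP. WT animals came from the colony of the transgenic mice and lacked the transgene. The H2Kb promoter is active in many cell types and is not specific to tendon. Age and sex differed together between the cohorts, so that a difference between early and established mice cannot be told apart from one between males and females.

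Cells take up zinc through the SLC39 (ZIP) family, which moves metal into the cytosol from outside or from organelles, and remove it through the SLC30 (ZnT) family, which moves it the other way. ZIP8, encoded by Slc39a8, and ZIP14, encoded by Slc39a14, carry zinc, manganese, iron and cadmium at the cell surface, and Slc39a8 is a known NF-kB target in immune cells. ZIP13, encoded by Slc39a13, sits in membranes of the secretory pathway, and its loss in humans and mice causes a connective tissue disorder with weak collagen. Metallothioneins are small cysteine-rich proteins that bind zinc and copper. Their genes are induced by zinc through the transcription factor MTF-1, which binds metal response elements, and also by glucocorticoids and inflammatory cytokines.

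The promoters of Mt1, Mt2, Slc39a8 and Slc30a1 are printed because metallothioneins and Slc30a1 are textbook targets of MTF-1 and because these genes differed in how they moved in established tendons. Each window runs from 250 bases before to 50 after a RefSeq transcript start (table on GRCm38.p6, placed on GRCm39 by exact match), 5′ to 3′ on the + strand. Capitals mark the metal response element core (TGCACNC or TGCGCNC on either strand) and the AP-1 letters TGANTCA.
Mt1, chr8:94905467-94905766: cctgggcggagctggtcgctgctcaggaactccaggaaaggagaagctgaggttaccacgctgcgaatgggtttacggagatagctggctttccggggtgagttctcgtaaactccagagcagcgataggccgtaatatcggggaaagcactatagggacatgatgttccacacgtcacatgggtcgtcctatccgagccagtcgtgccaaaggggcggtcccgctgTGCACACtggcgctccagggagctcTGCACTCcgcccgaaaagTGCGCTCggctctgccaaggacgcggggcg
Mt2, chr8:94898996-94899295: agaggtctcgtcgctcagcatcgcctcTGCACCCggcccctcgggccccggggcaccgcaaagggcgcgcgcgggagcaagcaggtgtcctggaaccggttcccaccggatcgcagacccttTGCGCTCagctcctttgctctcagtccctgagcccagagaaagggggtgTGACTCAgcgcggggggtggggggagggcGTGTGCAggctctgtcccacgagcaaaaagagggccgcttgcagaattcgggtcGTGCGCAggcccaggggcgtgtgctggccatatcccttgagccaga
Slc39a8, chr3:135531168-135531467: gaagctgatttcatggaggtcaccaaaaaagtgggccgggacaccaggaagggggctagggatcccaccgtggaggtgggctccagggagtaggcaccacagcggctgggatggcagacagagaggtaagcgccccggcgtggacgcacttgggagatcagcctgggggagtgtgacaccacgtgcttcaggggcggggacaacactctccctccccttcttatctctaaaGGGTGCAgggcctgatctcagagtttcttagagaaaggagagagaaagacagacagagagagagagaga
Slc30a1, chr1:191638643-191638942: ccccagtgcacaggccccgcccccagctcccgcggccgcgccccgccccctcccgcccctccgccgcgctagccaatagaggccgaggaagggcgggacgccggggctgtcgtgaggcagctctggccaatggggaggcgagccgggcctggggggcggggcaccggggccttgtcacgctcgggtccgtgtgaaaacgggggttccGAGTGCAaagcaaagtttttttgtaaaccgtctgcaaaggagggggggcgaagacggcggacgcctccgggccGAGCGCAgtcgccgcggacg
The metal response element core occurred 3 times in the Mt1 window, 4 times in the Mt2 window, 2 times in the Slc30a1 window and 1 time in the Slc39a8 window. It is short and was found in 25.7% of 32851 RefSeq windows of the same length. The AP-1 letters occurred 1 time, in the Mt2 window, as TGACTCA, and in 7.81% of all windows. They overlapped no metal response element core. The full glucocorticoid response element, AGAACA and TGTTCT with 3 bases between them, found in 3 of all windows (0.00913%), occurred in none of the printed ones. The other RefSeq start of Slc39a8 had none of these letters in its window. A match is a run of letters and not a measured binding site.

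Slc39a8 (ENSMUSG00000053897, GRCm39 chr3:135531040-135594333, + strand) was a low-level transcript in 3 of the 4 groups and stood higher in established Fosl-2(Tg) tendons. Values are CPM, the reads of a gene relative to the total of its library, scaled over all 28 mice by the TMM method. Slc39a8 lay between 3.24 and 16.8 CPM in early WT mice (median 10.9, n = 7) and between 6.90 and 16.7 CPM in early Fosl-2(Tg) mice (median 8.66, n = 8). In established WT mice it lay between 4.53 and 7.50 CPM (median 5.83, n = 6). The 7 established Fosl-2(Tg) mice had 46.7, 44.9, 38.7, 17.4, 292, 27.6 and 8.79 CPM in replicates 1 to 7. All 7 were above every established WT mouse, and replicate 7, the lowest, lay inside the range of the early mice. Replicate 5, the male, stood far above the others, with 4040 reads on Slc39a8. The male WT mouse of the same cohort had 6.21 CPM, within the range of the WT females.

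The fitted established difference of Slc39a8, Fosl-2(Tg) over WT, was 3.53 on the log2 scale (SE 0.72), or 11.5-fold, the 9th highest of 15862 genes tested in that cohort. Without Fosl-2(Tg) replicate 5 it was 2.37, and among the females 2.39. These figures describe the difference that chose the gene. In the early cohort, which the choice did not use, Slc39a8 differed by -0.22 (SE 0.27, 95% interval -0.80 to 0.35, FDR 0.92 by edgeR's quasi-likelihood test). The early groups overlapped throughout, and the interval excluded a difference of the established size. The genotype difference was larger in the established than in the early cohort by 3.74 (SE 0.73) on the log2 scale, and by 2.59 without Fosl-2(Tg) replicate 5. In WT tendons, established mice were lower than early mice by a log2 difference of -0.96 (SE 0.28), with overlapping groups.

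Among the 14 ZIP genes, compared per kilobase of merged exons, Slc39a8 was a minor member outside established Fosl-2(Tg) tendons. It made up 0.20 to 1.67% of the summed ZIP level in early WT mice, 0.44 to 1.19% in early Fosl-2(Tg) mice and 0.45 to 0.76% in established WT mice. In established Fosl-2(Tg) mice the share ran from 0.99 to 39.3%, with a median of 4.45%. Like its level, this share was part of the difference that chose the gene.

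**Figure D1:**
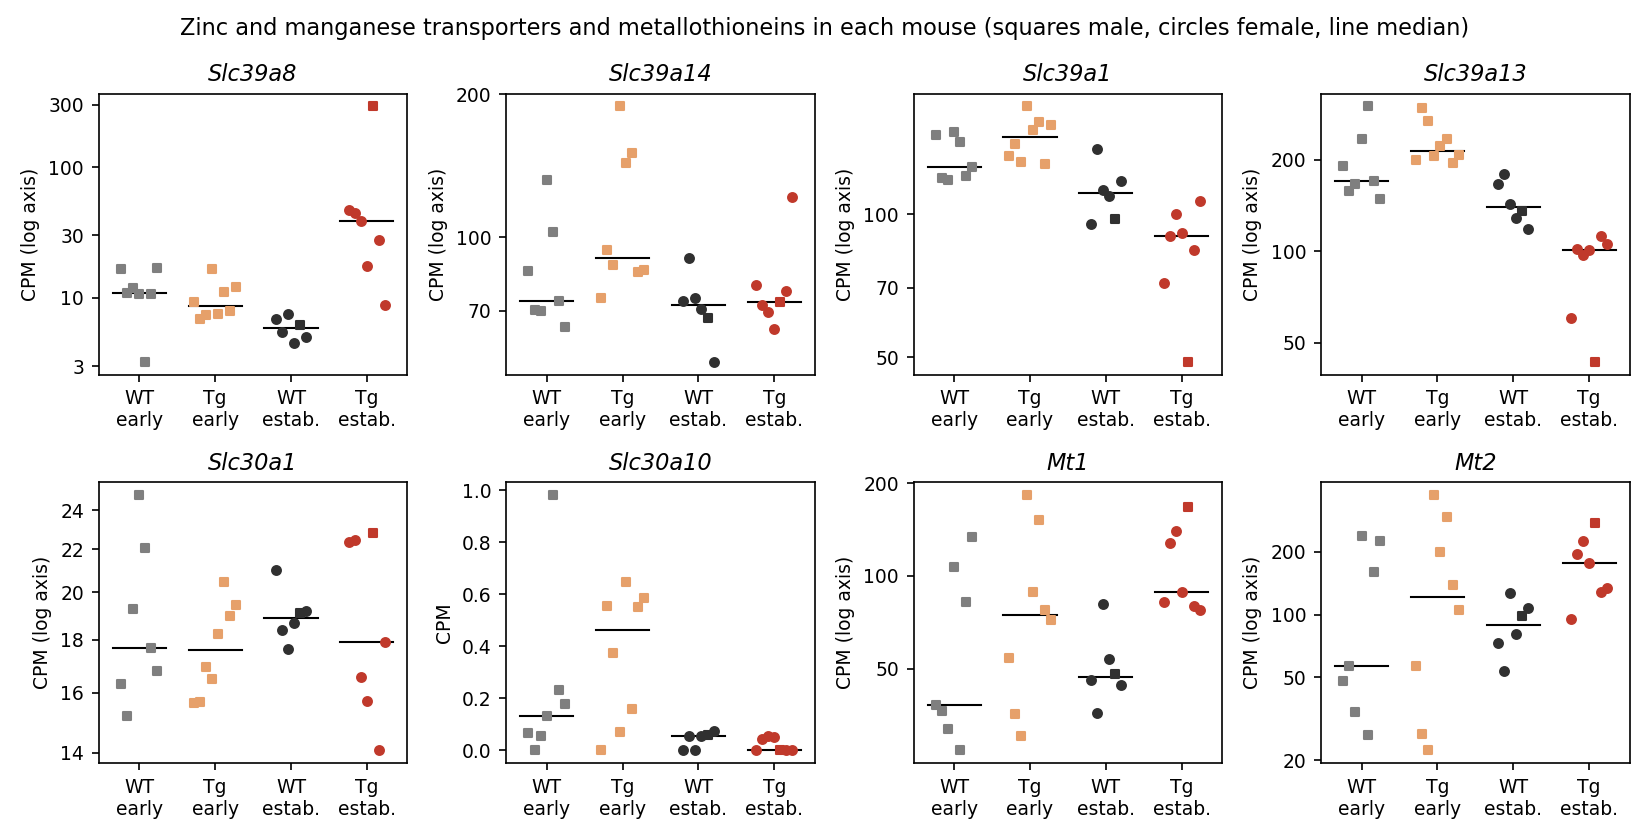
CPM of the 8 genes in each of the 28 mice, by group, on a log axis except for Slc30a10. Squares are males, circles females and the line is the group median. In the established cohort the Fosl-2(Tg) values of Slc39a8 lay above and those of Slc39a13 below every WT value, and the early groups overlapped for every gene.

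Reads were also counted on gene models inside the span of Slc39a8. GENCODE places 2 such models of unknown status, Gm43429 (chr3:135566109-135568359) and Gm43428 (chr3:135577874-135581718), within Slc39a8 on the same strand. Gm43428 had 0.07 to 0.23 CPM in established WT mice and 0.34 to 19.2 CPM in established Fosl-2(Tg) mice. Gm43429 had 0.15 to 0.45 and 0.61 to 21.1 CPM. For both models the groups did not overlap, and the highest mouse was again Fosl-2(Tg) replicate 5.

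Relative to the reads on Slc39a8, those on Gm43428 came to 2.90% in established WT and 5.48% in established Fosl-2(Tg) mice, summed over the mice of a group. Those on Gm43429 came to 6.44% and 6.71%. Taken mouse by mouse, the medians were 2.23% and 4.68% for Gm43428 and 4.89% and 7.23% for Gm43429. For Gm43429 the mice ranged from 2.36 to 9.85% in WT and from 5.37 to 7.84% in Fosl-2(Tg) tendons. The fitted log2 differences were 4.60 (SE 0.96) and 3.82 (SE 0.79), and 3.32 and 2.61 among the females. Gm43428 rested on only 32 reads in the 6 WT mice, 1 to 13 in each. It passed the filter on low counts only through the Fosl-2(Tg) mice. With 1 mouse left out it could be fitted in 7 settings, against 13 for Gm43429. Reads of the 2 models and of unspliced Slc39a8 RNA cannot be told apart, so these values are given with no test.

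**Figure D2:**
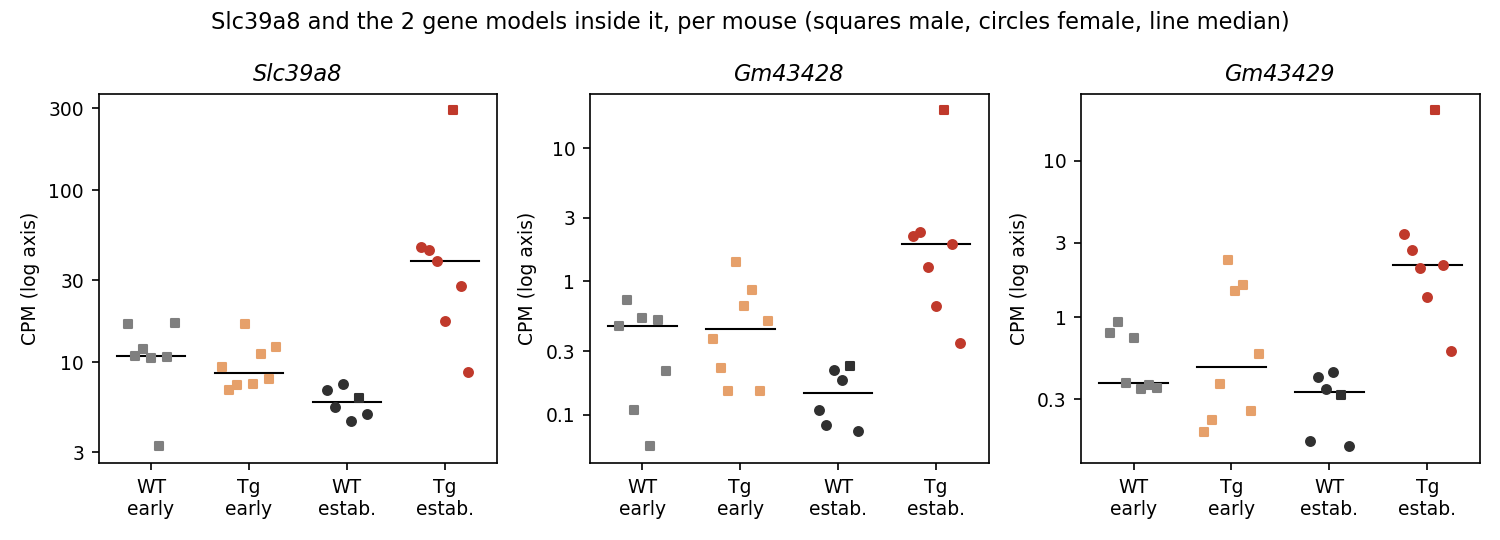
CPM per mouse, log axes, of Slc39a8 and of the 2 gene models inside it. Squares are males, circles females and lines medians. In the established cohort the 7 Fosl-2(Tg) values stood above the 6 WT values in all 3 panels, with the male replicate 5 highest.

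Differences of the size seen for Slc39a8 were not found in its protein-coding neighbours. Nfkb1, which encodes the p50 subunit of NF-kB and lies next to it, had a log2 difference of 0.09 in established tendons (SE 0.07, FDR 0.39). On the same side, Manba, a lysosomal mannosidase, had -0.37 (FDR 0.12) and Ube2d3, a ubiquitin-conjugating enzyme, had -0.02 (FDR 0.92). On the other side, Bank1, a B cell scaffold protein, had -0.72 (FDR 0.29), Ppp3ca, a calcineurin subunit, had -0.14 (FDR 0.25) and Emcn, an endothelial sialomucin, had -0.08 (FDR 0.96). None of the 6 passed the threshold of FDR 0.05, with edgeR's adjustment over all genes. Bank1 and Emcn were near the detection limit, with at most 1.22 and 2.31 CPM in any established mouse.

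The closest relative of Slc39a8, Slc39a14 (ENSMUSG00000022094, chr14:70540678-70588914, - strand), showed no such difference. It lay between 54.6 and 90.4 CPM in established WT mice (median 71.9) and between 64.0 and 122 CPM in established Fosl-2(Tg) mice (median 73.0). The groups overlapped, and the one mouse above the WT range was replicate 7, the mouse with the lowest Slc39a8. The log2 difference was 0.15 (SE 0.15, 95% interval -0.16 to 0.47, FDR 0.53), which excluded an increase of the size seen for Slc39a8. In early mice Slc39a14 lay between 64.6 and 132 CPM in WT and between 74.3 and 189 CPM in Fosl-2(Tg) tendons. Its early log2 difference was 0.41 (SE 0.22, FDR 0.83).

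Slc39a13 (ENSMUSG00000002105, chr2:90892122-90900916, - strand) fell in established Fosl-2(Tg) tendons. It lay between 119 and 180 CPM in the 6 established WT mice (median 139) and between 43.2 and 112 CPM in the 7 Fosl-2(Tg) mice (median 101). The groups did not overlap: the highest Fosl-2(Tg) mouse was below the lowest WT mouse. The lowest values were 43.2 CPM in replicate 5 and 60.5 CPM in replicate 1, the 2 mice with the most Slc39a8. Replicate 2, close to replicate 1 in Slc39a8 (44.9 against 46.7 CPM), had 101 CPM of Slc39a13. The log2 difference was -0.71 (SE 0.20, FDR 0.047). That call was close to the threshold: it was lost when any of 10 of the 13 mice was left out (FDR 0.052 to 0.10), among the females (FDR 0.052) and without a filter (FDR 0.058), while the log2 difference stayed between -0.81 and -0.59 in all alternatives.

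In early tendons Slc39a13 lay between 149 and 300 CPM in WT and between 196 and 297 CPM in Fosl-2(Tg) mice, and its log2 difference was 0.22 (SE 0.15, FDR 0.85). The difference between the cohorts was itself tested: the interaction was -0.94 on the log2 scale (SE 0.25, FDR 0.026), and it passed the threshold in all 7 other settings and with each of the 28 mice left out. Slc39a13 overlaps the 3′ end of Psmc3, a proteasome gene on the opposite strand, and the strand setting of the counting is not given in the sources used here, so reads in the overlap cannot be assigned.

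Slc39a1 (ENSMUSG00000052310, chr3:90155138-90160924, + strand), which encodes the widely expressed surface importer ZIP1, had values on the same side but did not pass the test of the comparison. Established WT mice had 95.5 to 137 CPM (median 111) and established Fosl-2(Tg) mice 48.9 to 107 CPM (median 89.9). Of the Fosl-2(Tg) mice, 5 of 7 were below every WT mouse. The log2 difference was -0.39 (SE 0.15, FDR 0.12), which passed the threshold in 3 of 9 other settings (lowest FDR 0.041), against 0.14 (SE 0.09, FDR 0.85) in early mice. The interaction was -0.54 (SE 0.17, FDR 0.052) and passed the threshold in 4 of 7 other settings, DESeq2 among them.

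The exporter Slc30a1 (ENSMUSG00000037434, chr1:191638808-191645361, + strand) encodes ZnT1, which moves zinc out of the cell and is an MTF-1 target. It ranged from 14.1 to 24.8 CPM over all 28 mice, with overlapping groups. Its log2 difference was -0.09 (SE 0.11, FDR 0.92) in early and -0.01 (SE 0.12, FDR 0.98) in established tendons. The established 95% interval, -0.26 to 0.25, excluded a change of the size of Mt1. In established Fosl-2(Tg) tendons 3 mice lay above and 3 below all WT mice, around a group median of 17.9 CPM against 18.9 CPM in WT. Slc30a10 (ENSMUSG00000026614, chr1:185186973-185200959, + strand), a manganese exporter best known in liver and brain, was hardly detected. It had at most 0.98 CPM in any mouse, and 9 reads in all 6 established WT and 5 in all 7 established Fosl-2(Tg) mice. It passed the filter on low counts in no comparison and was not tested.

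The metallothioneins rose in established Fosl-2(Tg) tendons. Mt1 (ENSMUSG00000031765, chr8:94905710-94906955, + strand) lay between 35.9 and 81.3 CPM in established WT mice (median 46.9) and between 77.4 and 168 CPM in established Fosl-2(Tg) mice (median 88.9). Of the Fosl-2(Tg) mice, 5 of 7 were above every WT mouse, and the other 2 lay below the highest WT mouse only. The log2 difference was 1.09 (SE 0.23, FDR 0.019), or 2.13-fold. It passed the threshold with each of the 13 mice left out (FDR 0.015 to 0.047) and was lost only when all 28 mice shared 1 estimate of the spread (FDR 0.074).

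Mt2 (ENSMUSG00000031762, chr8:94898819-94900207, + strand), its neighbour, lay between 53.4 and 126 CPM in established WT mice (median 89.5) and between 94.7 and 273 CPM in established Fosl-2(Tg) mice (median 176). Here 6 of 7 Fosl-2(Tg) mice were above every WT mouse. The log2 difference was 0.97 (SE 0.25, FDR 0.037), or 1.95-fold. This call was lost with any of 8 mice left out (FDR 0.052 to 0.078), among the females (FDR 0.077) and in the shared fit of 28 mice (FDR 0.26). The highest mouse for Mt1 and for Mt2 was again Fosl-2(Tg) replicate 5, at 168 and 273 CPM, but its distance from the others was small beside that for Slc39a8. Mt1 and Mt2 are close paralogs, and how reads that matched both were treated is not given in the sources used here.

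In early tendons both metallothioneins spread widely within each genotype. Mt1 lay between 27.2 and 134 CPM in early WT mice (median 38.2) and between 30.2 and 183 CPM in early Fosl-2(Tg) mice (median 74.6). Mt2 lay between 26.4 and 237 CPM and between 22.3 and 375 CPM. In WT the 3 high mice were replicates 4, 6 and 7, and in Fosl-2(Tg) mice replicates 1 to 3 were the lowest, and the early mice of both genotypes together covered the whole range of the established values. The early log2 differences were 0.42 (SE 0.42, FDR 0.91) for Mt1 and 0.44 (SE 0.62, FDR 0.93) for Mt2. Their 95% intervals, -0.48 to 1.31 and -0.86 to 1.75, included the established difference, and the interaction did not pass the test for Mt1 (0.67, SE 0.53, FDR 0.44) or Mt2 (0.53, SE 0.74, FDR 0.69). A difference between the cohorts in the response of the metallothioneins was therefore not detectable with this spread.

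**Figure D3:**
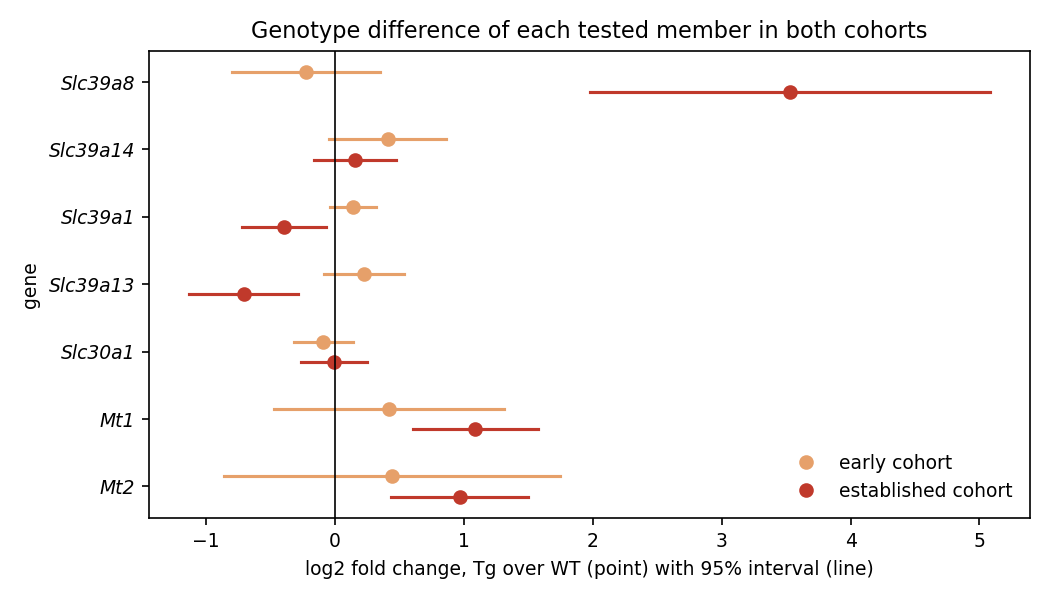
Log2 fold change, Fosl-2(Tg) over WT, with its 95% interval from edgeR, for the 7 genes that could be tested, in the early and the established cohort. Slc39a8 (established, 3.53) is a description, since that value chose the gene. Mt1 and Mt2 lay above 0 and Slc39a13 below 0 in the established cohort, and all 7 early intervals included 0.

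Over the members, none of the 7 tested in the early cohort passed the threshold, 0 at an unadjusted p under 0.05 and 0 by DESeq2. Of all 15138 genes tested there, 0.0396% were called, 6 genes (11 with the replicate number as a block). The early groups overlapped for all 7, and 0.0528% of all genes had groups that did not overlap. In the established cohort, leaving out Slc39a8, 3 of 6 tested members were called, Mt1 and Mt2 higher and Slc39a13 lower, beside 6.51% of 15862 genes, 3.14% higher and 3.37% lower. Groups that did not overlap were found for 1 of the 6 (Slc39a13, lower), beside 3.81% of all genes, 1.48% higher and 2.33% lower. For the interaction 1 of 6 was called, Slc39a13, beside 7.43% of 16082 genes. Between established and early WT mice 0 of 6 passed the threshold by edgeR or by DESeq2, 2 of them (Slc39a1 and Slc39a13) at an unadjusted p under 0.05, beside 4.74% of 15645 genes called and 22.0% at that unadjusted p. There the log2 differences were -0.24 for Slc39a1 (FDR 0.17), -0.43 for Slc39a13 (FDR 0.15), -0.25 for Slc39a14 (FDR 0.40), 0.01 for Slc30a1 (FDR 0.97), -0.34 for Mt1 (FDR 0.62) and -0.32 for Mt2 (FDR 0.73).

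Per kilobase of merged exons, the order of the mean levels was nearly the same in all groups. Mt2 was highest, from 94.7 CPM per kb in established WT to 184 in established Fosl-2(Tg) mice, followed by Mt1 at 41.3 to 87.5. Slc39a13 and Slc39a1 came next and were not separated beyond their spread in any group: 26.7 ± 4.28 and 25.9 ± 3.52 CPM per kb (SD, n = 6) in established WT mice. Slc39a14, at 5.94 to 9.39, and Slc30a1, at 3.13 to 3.35, followed, without overlap in the early groups and in established WT mice. In established Fosl-2(Tg) mice the range of Slc39a14 overlapped that of Slc39a8 and not that of Slc30a1. Slc39a8 stood below Slc30a1 with no overlap in the other 3 groups (0.75 ± 0.14 CPM per kb in established WT mice), and in established Fosl-2(Tg) mice its mean, 8.61 ± 12.6 (SD, n = 7), was above that of Slc39a14 although 1 mouse alone was higher for Slc39a8 than for Slc39a14. Slc30a10 was lowest throughout.

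Mt1 and Mt2 rose and fell together from mouse to mouse. After the mean of each group was subtracted from the log2 CPM, which removes the difference between groups, Pearson's r was 0.96 and Spearman's rho 0.95 over 28 mice (permutation p = 1e-05 for each, two-sided, the smallest that 100000 shuffles within groups can give, adjusted p = 6e-05 over 6 relations). It was 0.98 within the early and 0.84 within the established cohort, and 0.95 without the 2 mice farthest from the median. Slc39a8 went with Mt1 more loosely, with r 0.48 (permutation p = 0.00049, adjusted 0.0015) and rho 0.51 (permutation p = 0.007, adjusted 0.021). That r was 0.56 in early and 0.65 in established mice, and 0.53 without the 2 farthest mice.

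For Slc39a8 and Mt2, r was 0.37 (permutation p = 0.0087, adjusted 0.017), but by rank the relation did not pass the correction (rho 0.39, permutation p = 0.049, adjusted 0.098). It was 0.53 within the early and 0.45 within the established cohort, and 0.44 without the 2 farthest mice. No relation of Slc39a14 passed the test: r was -0.15 with Slc39a8 (rho 0.03, permutation p = 0.40 and 0.88), 0.33 with Mt1 (rho 0.23, permutation p = 0.16 and 0.29) and 0.35 with Mt2 (rho 0.24, permutation p = 0.15 and 0.29). With Mt1 and Mt2 it was positive in early mice (0.49 and 0.51) and negative in established mice (-0.34 and -0.51), and fell to 0.03 and 0.07 without the 2 farthest mice, so the positive values rested on those mice. With Slc39a8 it was 0.0060 in early and -0.35 in established mice, and 0.066 without the 2 farthest. Adjusted over the 6 relations, its p-values were 0.20 to 0.88.

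**Figure D4:**
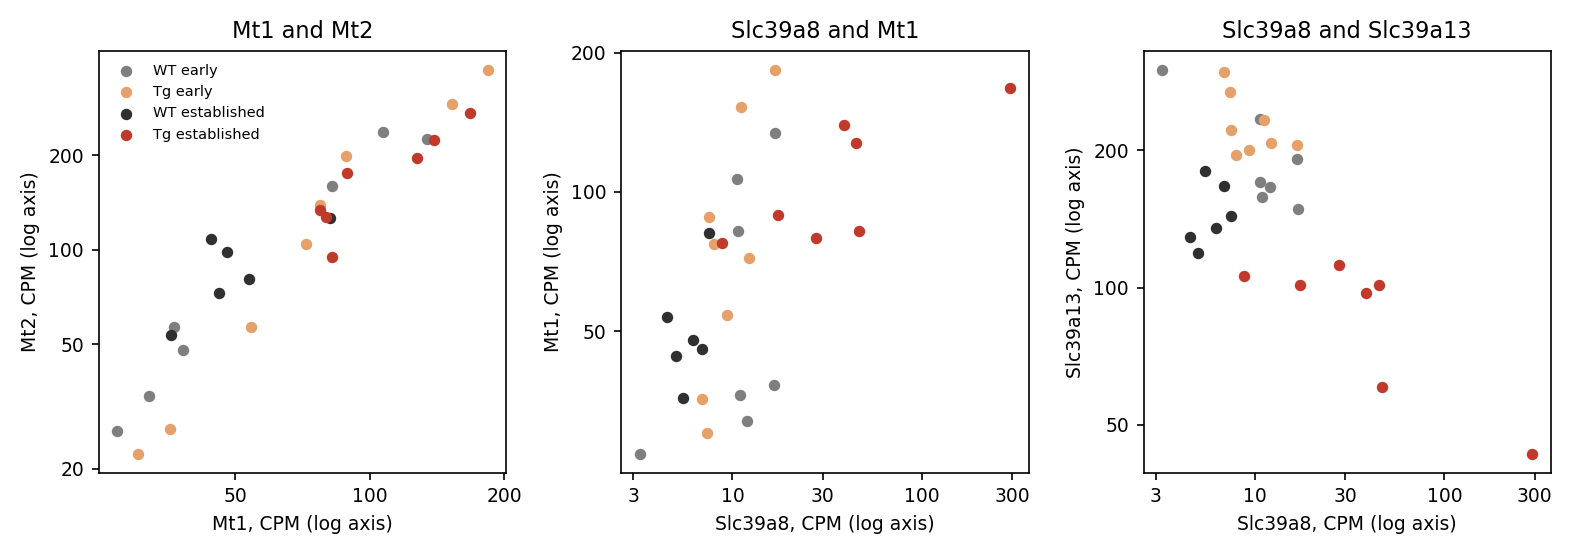
CPM of 3 pairs of genes in each of the 28 mice, on log axes, coloured by group. Mt1 and Mt2 fell along 1 line in all groups. Mt1 and Slc39a8 went together only loosely (r 0.48 with group means subtracted), and the plotted CPM keep the differences between groups. The established Fosl-2(Tg) mouse with 292 CPM of Slc39a8 had the lowest Slc39a13, 43.2 CPM.

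The genes whose levels were most like those of Slc39a8 over the 28 mice, out of 16079 compared, were Rhoj (Spearman's rho 0.85), Ifngr1, the ligand-binding chain of the interferon gamma receptor (0.85), Tcp11l2 (0.84), Iah1 (0.83) and Eeig2 (0.81). These rho values hold the difference between groups and have no test. Of them, Ifngr1 lay between 48.1 and 65.8 CPM in established WT and between 79.3 and 147 CPM in established Fosl-2(Tg) mice, and Iah1 between 10.9 and 12.8 and between 15.6 and 18.3 CPM. Neither overlapped, beside 3.81% of all genes tested in that cohort. Rhoj (52.7 to 68.9 against 52.2 to 148 CPM), Tcp11l2 (20.7 to 32.0 against 25.9 to 113) and Eeig2 (199 to 240 against 222 to 406) did overlap. Since the genes were picked by a rho that holds the difference between groups, separation of these groups is a description and no separate result. Among the members, Mt1 ranked 63rd (0.66) and Mt2 484th (0.51), while Slc39a13 was at -0.47.

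The wider zinc list held all 14 ZIP genes, 10 ZnT genes, 4 metallothioneins and the metal sensor Mtf1, 29 genes in all. Apart from the members, 0 of 15 genes tested in the early cohort and 0 of 16 in the established cohort passed the threshold by edgeR, with 0 and 3 at an unadjusted p under 0.05, beside 6.06% and 26.6% of all genes. Their median log2 difference was 0.07 in early and -0.09 in established tendons, beside -0.01 and 0.01 over all genes. Slc39a7, which encodes the endoplasmic reticulum importer ZIP7, came nearest. It lay between 119 and 153 CPM in established WT and between 46.9 and 110 CPM in established Fosl-2(Tg) mice, without overlap, with a log2 difference of -0.60 (SE 0.17, FDR 0.054). The Golgi importer Slc39a11 had -0.32 (FDR 0.16) and Mtf1 -0.17 (FDR 0.14).

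The 5 further ZnT genes tested (Slc30a4, Slc30a5, Slc30a6, Slc30a7 and Slc30a9), which load zinc into organelles or act in the nucleus and mitochondria, lay between -0.10 and 0.02 in the established cohort. The brain metallothionein Mt3 had -1.03 with a wide error (SE 0.61, FDR 0.29). Slc39a4, Slc30a2, Slc30a3, Slc30a8, Slc30a10 and Mt4 were too low to be tested in any comparison, with at most 0.98 CPM in any mouse. Slc30a8, the zinc transporter of insulin granules, had no read in the 28 mice.

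Of 6 further genes of manganese handling, Atp2c1 was called in the established cohort, beside 6.51% of all genes tested there. Groups that did not overlap were found for 3.81% of all genes. It encodes SPCA1, the Golgi pump for calcium and manganese, and lay between 54.5 and 62.0 CPM in WT and between 62.6 and 77.4 CPM in Fosl-2(Tg) mice, without overlap. The log2 difference was 0.27 (SE 0.06, FDR 0.030) in established and -0.20 (SE 0.07, FDR 0.73) in early tendons, with an interaction of 0.46 (SE 0.09, FDR 0.0069). The established call was lost among the females (FDR 0.061) and with any of 5 mice left out, while the interaction passed in every alternative. Slc11a1, the phagosomal metal transporter of macrophages, had 0.45 (FDR 0.053), the iron and manganese exporter Slc40a1 0.51 (FDR 0.22), Sod2, the mitochondrial manganese superoxide dismutase, -0.31 (FDR 0.16), Tmem165 -0.27 (FDR 0.075) and Slc11a2 -0.04 (FDR 0.77). None of the 6 was called in early tendons (0 by edgeR, 1 at an unadjusted p under 0.05, Atp2c1). Of all genes, 0.0396% were called there and 6.06% reached that unadjusted p.

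**Figure D5:**
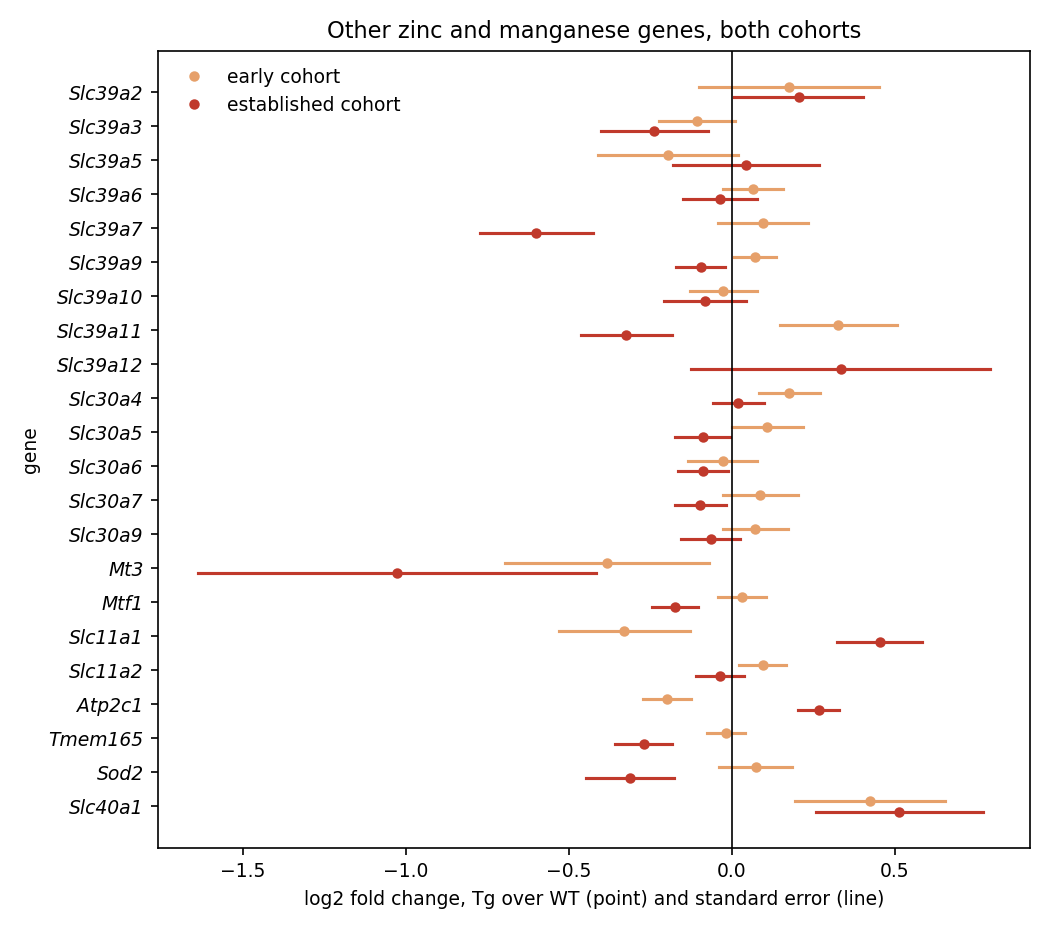
Log2 fold change, Fosl-2(Tg) over WT, with its standard error, for the 16 further zinc genes and 6 manganese genes tested in the established cohort. Atp2c1 (0.27) alone passed the FDR threshold, beside 6.51% of all genes in the established cohort. Slc39a7 (-0.60) was the lowest ZIP gene of those shown.

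Other genes also differed between established Fosl-2(Tg) and WT tendons. Of 8 tendon fibroblast markers, 4 were called lower (Scx, Tnmd, Col1a1 and Col1a2), beside 3.37% of all genes tested. The summed list ranged from 91639 to 185180 CPM in WT and from 3526 to 74654 CPM in Fosl-2(Tg) mice, without overlap. Col1a1 alone held a large part of that sum, at 44271 to 100124 CPM in WT mice. Mkx, Fmod, Thbs4 and Comp overlapped between the groups and were not called (FDR 0.17 to 0.45). None of the 8 was at 0. Col1a1 was 989 CPM in Fosl-2(Tg) replicate 5 and 1868 CPM in replicate 1, the 2 mice with the most Slc39a8 and the least Slc39a13, and 9787 to 28261 CPM in the other 5. Replicate 2, close to replicate 1 in Slc39a8 (44.9 against 46.7 CPM), had 10241 CPM of Col1a1. Replicate 5 was also the shallowest established library, with 9664327 counts. In bulk tissue, fewer cells of a type and less RNA per cell cannot be told apart, and the part of such changes in the values of Slc39a8, Slc39a13 and the metallothioneins was not tested.

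Of 7 glucocorticoid-responsive genes, 3 passed the test in the established cohort, all higher in Fosl-2(Tg) mice (Fkbp5, Zbtb16 and Errfi1). The median log2 difference over the 7 was 0.94. Of 10 tested NF-kB and STAT3 feedback genes, 5 were called higher (Il6ra, Osmr, Nfkbiz, Tnfaip3 and Socs3), with a median of 0.46. Of all 15862 genes tested there, 3.14% were called higher. Both lists were chosen with earlier results of these data known. Fkbp5, a chaperone induced by glucocorticoids, lay between 32.8 and 70.2 CPM in established WT and between 65.1 and 304 CPM in established Fosl-2(Tg) mice, highest in replicate 5. The part of these responses was not tested.

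Of 9 macrophage markers 1 was called higher (Cd163), beside 3.14% of all genes. The summed list overlapped, at 703 to 1218 CPM in WT and 889 to 1549 CPM in Fosl-2(Tg) mice. All 9 log2 differences were above 0 in the established cohort, 3 at an unadjusted edgeR p under 0.05. In the early cohort all 9 were below 0, 6 of them at that unadjusted p, beside 6.06% of all genes. In the established cohort no marker of 6 of skeletal muscle, 4 tested of erythroid cells or 4 of endothelium passed the threshold by edgeR. Nor did any of 3 tested of Schwann cells, 1 tested of keratinocytes or 1 tested of adipocytes. Of all genes, 6.51% were called there. The median log2 difference was -1.74 for muscle and -0.87 for endothelium, with every gene below 0. It was 2.38 for the tested erythroid and 0.83 for the tested Schwann cell genes, with every one above 0. At an unadjusted p under 0.05, which 26.6% of all genes reached, were 3 of the 4 erythroid genes and 1 of the 3 Schwann cell genes, and the summed erythroid list was 8.94 to 20.1 CPM in WT and 10.2 to 126 CPM in Fosl-2(Tg) mice. Of 5 neutrophil markers none was high enough to be tested, and S100a9 and Ly6g had no read in established WT mice. Their summed level was 0 to 0.16 CPM in established WT and 0 to 3.86 CPM in established Fosl-2(Tg) mice, and their part in the results was not tested. Summed muscle genes ran from 47.9 to 13924 CPM in established WT and from 34.0 to 4722 CPM in established Fosl-2(Tg) mice. None of these lists had a gene called in the early cohort, where 0.0396% of all genes were called. For the interaction, 4 of 5 erythroid, 3 of 9 macrophage and 1 of 4 Schwann cell genes were called higher, beside 7.43% of all genes called. No muscle, endothelial, keratinocyte or adipocyte gene was called for the interaction.

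Libraries held 9645598 to 66894396 counts. Fosl2 itself, counted from the endogenous gene and the transgene together, averaged 88.7 ± 26.1 CPM (SD, n = 7) in early WT, 102 ± 40.5 (n = 8) in early Fosl-2(Tg), 111 ± 32.7 (n = 6) in established WT and 143 ± 15.8 (n = 7) in established Fosl-2(Tg) mice. Its genotype difference did not pass the threshold in either cohort (log2 0.20 with FDR 0.92 and 0.38 with FDR 0.14), so the genotype rests on the labels.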

How the data were processed

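The authors aligned reads to GRCm39 with STAR and counted them per gene with featureCounts (GENCODE M26), and deposited raw counts, 1 file per mouse. Strand setting and treatment of multimapping reads are not given in the sources used here. The study's own test was DESeq2. From these counts, edgeR 4.0.16 (quasi-likelihood, TMM, filterByExpr with a minimum count of 10) compared Fosl-2(Tg) with WT in each cohort, established with early WT, and, over all 28 mice, the genotype differences of the cohorts. FDR is the Benjamini-Hochberg value over all genes tested, with a threshold of 0.05. CPM were scaled over all 28 mice, so they differ from CPM scaled within a cohort. Relations used log2 CPM with a prior count of 2. Levels per kilobase used merged exons of GENCODE M39, which named 25505 of 25719 gene IDs. RefSeq promoter windows held 7 of the 8 genes (Slc39a14 had none). The genes, lists and tests were chosen with earlier results of these data known. The text names the 8 members, called genes of the zinc and manganese lists, genes in and beside Slc39a8, the 5 genes most like it and the marker, glucocorticoid, and NF-kB and STAT3 lists. Values of Slc39a7, Slc39a11, Mtf1, Mt3 and uncalled manganese genes were added after they were seen.

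Samples follow the labels, which number the libraries of a group as replicates. Each was taken as 1 mouse, but the labels do not say so, and p-values measure only the spread between these samples. No pair of libraries agreed within sampling noise. Depth sets counting error: Slc39a8 had 56 to 473 reads per library outside the established Fosl-2(Tg) group and 231 to 4040 within it. In early mice the deviations of same-numbered WT and Fosl-2(Tg) libraries correlated at 0.13 to 0.36 (7 pairs), each over 0.1. Only 1 of 14 mice correlated best with its own number, so it is not settled whether the numbers pair the mice. The main early test used no pairing, and a replicate block was run as an alternative. In established mice the range was -0.22 to 0.69 (6 pairs). The scripts were tested on simulated counts. Alternatives were DESeq2 1.42.0, RLE scaling, no filter, a mean of at least 1 CPM, robust estimation, a shared fit of 28 mice, a replicate block, sex as a covariate, females only and leaving out each mouse.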

Additional observations from a re-analysis of the deposited data

Results flagged for a closer look

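Dixon's rule was applied to 32 sets of values, the 8 genes in 4 groups, and chance flags about 1 in 20. Slc39a8 reached 292 CPM in established Fosl-2(Tg) replicate 5, against at most 46.7 CPM in the other 6. These values chose the gene, so this is a description and not a test. In 2 further sets 1 mouse stood apart. Slc39a14 reached 122 CPM in established Fosl-2(Tg) replicate 7, against at most 79.5 CPM in the others. Slc30a10 was at 0.98 CPM in early WT replicate 5, 17 reads, a mouse that also had the lowest Slc39a8 of its group (3.24 CPM) and the highest Slc39a13 (300.2 CPM).

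The genotype difference was not the same in the cohorts for Slc39a13, with an interaction of -0.94 on the log2 scale (edgeR FDR 0.026), or for Atp2c1, with 0.46 (FDR 0.0069). Sex and age also differed between the cohorts, and their part cannot be told apart from that of disease stage.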

How the results depend on the processing

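Established members past the threshold, 3 without Slc39a8, numbered 4 with sex as a covariate, 1 among the females and 1 to 3 with 1 mouse left out. The lone call was Mt1 among the females. For the wider zinc list, 3 called without Slc39a8, there were 5 with sex as a covariate, 1 among the females and 1 to 4 with 1 mouse left out. The interaction, 1 called, gave 2 with DESeq2, with a mean of at least 1 CPM, with a replicate block and without the established males, the second being Slc39a1, and 1 to 2 with 1 mouse left out. Libraries whose omission left 1 established member were WT replicates 1, 2, 4, 5 and 6 and Fosl-2(Tg) replicates 2 and 3. The cause was not tested.

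The early and WT stage counts stayed at 0 in every alternative. With 1 mouse left out, Slc30a1 ran from -0.059 to 0.054 on the log2 scale (established) and from -0.056 to 0.074 (WT stage), Ube2d3 from -0.061 to 0.019 and Emcn from -0.77 to 0.48, so these changed sign around 0. The directions of Mt1, Mt2, Slc39a1 and Slc39a13 in established tendons held in every alternative. CPM scaled by library totals alone moved the established Fosl-2(Tg) mean of Slc39a1 from 84.7 to 112 and of Slc39a13 from 88.9 to 118, still below WT (119 and 155). It put Slc39a14 at 107 against 76.3 in WT and Slc30a1 at 25.5 against 20.2, above WT, where the main scaling gave 79.5 against 71.8 and 18.8 against 19.0. In early mice it turned Slc39a1, 117 against 119. These means had no test. The 3 relations past p 0.05 were also past it with a prior count of 0.5, without the established males and, chosen after seeing the data, without Fosl-2(Tg) replicate 5.

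The replicate block left 3 established and 0 early members called. Established numbers are shared by name only: 5 of 12 mice correlated best with their own number. With the block, Slc39a13 was lost (FDR 0.057) and Slc39a1 gained (FDR 0.047), and Atp2c1 was lost (FDR 0.11). All genes called numbered 1032 by edgeR, 2177 by DESeq2 and 560 among the females in the established cohort, 742 and 1622 for the WT stage, and 6, 25 and, with the block, 11 in the early cohort. For the interaction the block gave 2000 calls against 1195, and leaving out the established males 725.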

Other observations

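In 4 relations chosen after the data were seen, with group means subtracted and p adjusted over 10 relations, Slc39a13 went with Col1a1, the main tendon collagen chain, across the 28 mice: r was 0.91 and rho 0.93 (permutation p = 1e-05, the smallest the shuffles can give, adjusted 3.3e-05). It was 0.91 in early and 0.94 in established mice, and 0.86 without the 2 farthest mice. Why these genes moved together was not tested. Slc39a8 ran against Slc39a13, with r -0.73 and rho -0.53 (permutation p = 0.00093 and 0.0078, adjusted 0.0015 and 0.013), -0.73 in early and -0.74 in established mice, and -0.57 without the 2 farthest.

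Fkbp5, a glucocorticoid-induced gene, went with Mt1 at r 0.84 and rho 0.86 (permutation p = 1e-05, adjusted 3.3e-05), 0.87 in early and 0.72 in established mice, and 0.81 without the 2 farthest. With Slc39a8 it had r 0.57 and rho 0.62 (permutation p = 0.00018 and 0.00092, adjusted 0.00045 and 0.0023), 0.49 in early and 0.90 in established mice, and 0.49 without the 2 farthest. Since these pairs were picked for how they looked, the p-values are not independent evidence.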
